A study of Mus musculus with 14 samples.

Results

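The 4 transcripts described here are those read by the Affymetrix probe sets 1452418_at, 1453238_s_at, 1427932_s_at and 1435137_s_at, 4 of the 22626 probe sets left on the mouse array once controls were set aside. They were selected on their signal in these arrays, as high in newborn brain with the maternal duplication and not high in embryos, so those differences are given as descriptions without a test. The annotation used here pairs none of the 4 with a gene, and they are called by probe set throughout. Because the signal of a probe set also depends on how well its probes bind, levels are compared between arrays for 1 probe set and never between probe sets. In Affymetrix naming the ending _s_at marks a probe set whose probes can bind more than 1 transcript. The 4 sets may therefore read shared transcripts, and they were not treated as 4 independent measurements.

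All mice were heterozygous for the T9H translocation, a reciprocal exchange between chromosomes 7 and 15. MatDp7 mice carried proximal chromosome 7 duplicated from the mother and, as the counterpart, proximal chromosome 15 duplicated from the father. PatDp7 mice had the reverse, so effects of the chromosome 7 and chromosome 15 duplications cannot be told apart, and no array held brain without a duplication. RNA came from neonatal cortex, neonatal cerebellum and 15.5 dpc brain (2 arrays for each duplication) and from 13.5 dpc brain (1 array for each duplication), with no day given for the neonates.

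Genomic imprinting silences certain genes on the copy inherited from 1 parent, so a region inherited from 1 parent alone lacks or doubles the active copy of those genes. The 4 transcripts are set here beside genes induced by glucocorticoids, the adrenal steroid hormones that bind the receptor Nr3c1 and send it to the nucleus, where it switches on target genes. In developing brain these hormones act on the maturation of neurons and glia. Among these targets, Klf15 encodes a transcription factor of metabolism, Cebpd a transcription factor of acute responses, and Tsc22d3 (GILZ) an anti-inflammatory mediator of the hormone.

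The labels were checked on Ndn and Peg3, imprinted genes of chromosome 7 that are active on the paternal copy. Ndn had an intensity of 36.4 to 186 on the 7 MatDp7 arrays and 8073 to 13670 on the 7 PatDp7 arrays, and Peg3 had 60.9 to 219 and 1813 to 14970. Array medians lay between 212.6 and 281.1. The summed signal of cortical excitatory neuron markers was 10120 to 23430 in the 4 cortex arrays and 1230 to 5290 in the 4 cerebellum arrays, whereas that of cerebellum and hindbrain markers (4642 to 10770 and 8604 to 12560) overlapped between the regions. Replicate numbers went with sex-linked transcripts: Xist, the RNA of the inactive X chromosome, was at 198 to 437 on the replicate 1 arrays of the replicated tissues and 2882 to 5760 on all others, while the Y-linked Uty was at 174 to 319 and 23.5 to 58.8. The neonatal replicate 1 arrays also reached higher maximum intensities (43127 to 61172, against at most 25858 on the other 10), so in the newborns replicate number, sex-linked signal and array range cannot be told apart. In 15.5 dpc brain the replicate numbers differed in sex-linked signal without that gap in maximum intensity.

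In newborn brain each of the 4 transcripts was higher on all 4 MatDp7 arrays than on any of the 4 PatDp7 arrays, and on the MatDp7 arrays also higher than on any of the 6 embryonic arrays. The ratio of mean MatDp7 to mean PatDp7 intensity was 6.54 for 1452418_at, 7.98 for 1453238_s_at, 4.41 for 1427932_s_at and 10.3 for 1435137_s_at (n = 4 arrays each, 2 per region). These are the values the transcripts were chosen by. The PatDp7 newborns and the embryos overlapped for each transcript.

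The transcript 1452418_at had intensities of 6230 and 4285 in MatDp7 cortex and 8003 and 6727 in MatDp7 cerebellum (replicates 1 and 2). In PatDp7 it was at 2203 and 625 in cortex and 509 and 525 in cerebellum. In 15.5 dpc brain it was at 465 and 239 with MatDp7 and 334 and 252 with PatDp7, and in 13.5 dpc brain at 551 and 563. The neonatal groups did not overlap, the lowest MatDp7 array being 1.94 times the highest PatDp7 array and 7.61 times the highest embryonic array. PatDp7 cortex replicate 1 stood above the other 3 PatDp7 neonatal arrays.

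The same array was high for 1453238_s_at, which read 795 and 179 in PatDp7 cortex and 235 and 138 in PatDp7 cerebellum. Its MatDp7 intensities were 3384 and 2066 in cortex and 2704 and 2592 in cerebellum. Embryonic values were 94.9 and 59.5 (MatDp7) and 126 and 111 (PatDp7) at 15.5 dpc, and 129 and 180 at 13.5 dpc. The neonatal groups were separated by a factor of 2.6 at their nearest arrays, and the embryonic range overlapped the PatDp7 newborns but no MatDp7 newborn.

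For 1427932_s_at the MatDp7 arrays read 4362 and 4138 in cortex and 3826 and 6470 in cerebellum. The PatDp7 arrays read 1916 and 973 in cortex and 694 and 676 in cerebellum. Embryonic intensities were 363 and 470 with MatDp7 and 743 and 726 with PatDp7 at 15.5 dpc, and 714 and 845 at 13.5 dpc. PatDp7 cerebellum was thus within the embryonic range, and PatDp7 cortex lay above it on both arrays.

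The transcript 1435137_s_at differed most between arrays of 1 group. It was at 983 and 1800 in MatDp7 cortex and at 453 and 2012 in MatDp7 cerebellum. PatDp7 values were 131 and 189 in cortex and 21 and 170 in cerebellum, the 21 being the only member value under the constant of 52.03 added to every intensity before taking log2. Embryos had 56.1 and 84.4 (MatDp7) and 79.1 and 130 (PatDp7) at 15.5 dpc and 71.4 and 115 at 13.5 dpc. The neonatal PatDp7 and embryonic values overlapped, and the 4 neonatal MatDp7 values lay above both.

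**Figure D1:**
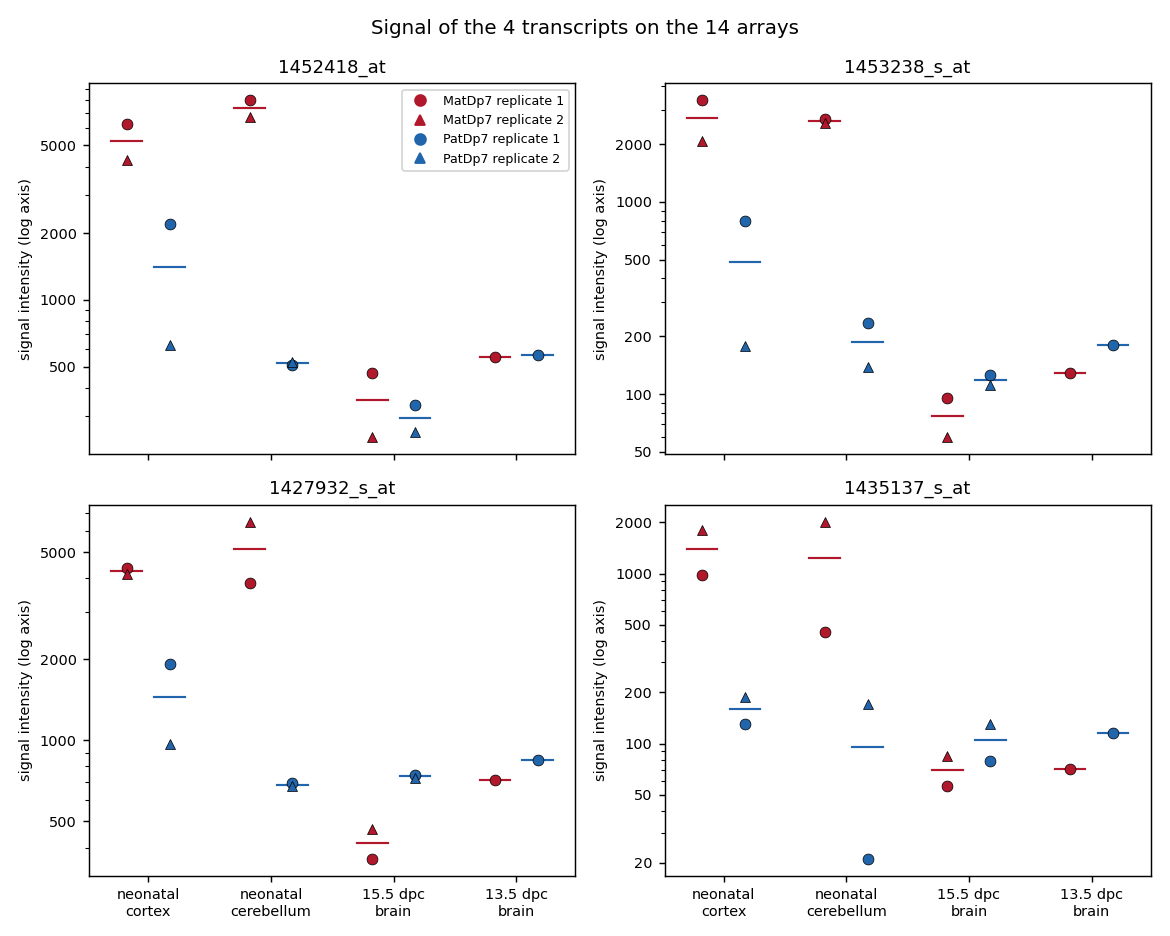
Signal intensity of the 4 transcripts (log axis, 1 panel each) on the 14 arrays by tissue, with MatDp7 in red and PatDp7 in blue, circles for replicate 1, triangles for replicate 2 and lines for group means. In both neonatal regions the red points lie above the blue, by 1.94 times for 1452418_at at the nearest arrays over both regions, and the embryonic points lie low in both colours.

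Averaged over the replicates and regions, 1452418_at had an intensity of 6311 ± 1544 in MatDp7 newborns, 966 ± 827 in PatDp7 newborns (SD, n = 4) and 401 ± 146 in embryos (SD, n = 6). The corresponding means were 2686 ± 542, 337 ± 308 and 117 ± 40.2 for 1453238_s_at. They were 4699 ± 1201, 1065 ± 584 and 644 ± 185 for 1427932_s_at, and 1312 ± 725, 128 ± 75 and 89.4 ± 27.8 for 1435137_s_at. Each SD also holds differences between regions or ages.

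On the log2(intensity + 52.03) scale, which understates changes of dim signals, the neonatal PatDp7 minus MatDp7 difference was −2.89 ± 0.358 for 1452418_at and −3.07 ± 0.37 for 1453238_s_at (SE from limma). It was −2.18 ± 0.24 for 1427932_s_at and −2.86 ± 0.48 for 1435137_s_at. Within replicate number 1 the 4 differences were −2.66, −2.64, −1.77 and −2.64, and within number 2 they were −3.12, −3.50, −2.60 and −3.08, in the same order. All were lower with PatDp7 under either number. Over the 13576 probe sets that remained once the dimmest 40% were left out, the limma fit placed 5 (0.0368%) higher in MatDp7. This count, at an adjusted p under 0.05, includes 2 sets for C230091D08Rik. With the neonatal replicate number as a block the fit placed 14 (0.103%) higher in MatDp7. In 126 probe sets (0.928%) all 4 MatDp7 arrays exceeded all 4 PatDp7 arrays. Because the 4 transcripts were chosen on this contrast, their own p-values are not given, and nothing about them is read from these counts.

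The MatDp7 excess of the newborns was not seen in the embryos. The transcripts were chosen as not high there, so this follows from the choice. At 15.5 dpc PatDp7 minus MatDp7 was −0.18 ± 0.507 for 1452418_at and 0.42 ± 0.523 for 1453238_s_at (log2, SE from limma, 2 arrays against 2). It was 0.76 ± 0.339 for 1427932_s_at and 0.35 ± 0.678 for 1435137_s_at. For 1453238_s_at and 1427932_s_at both PatDp7 embryos exceeded both MatDp7 embryos, opposite to the newborns. The share of all probe sets with that order was not counted, so nothing is read from it. Over all tested probe sets limma called 10 of 13576 between the duplications at 15.5 dpc (15 with the replicate block). The transcripts themselves were not tested there. At 13.5 dpc, with 1 array each and no test, the differences were 0.03, 0.36, 0.23 and 0.44. In whole tissue RNA, fewer cells that hold a transcript and less of it per cell cannot be told apart.

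The choice of transcripts did not use the difference between regions, and none passed that test. Cortex minus cerebellum was 0.31 ± 0.358 for 1452418_at, 0.46 ± 0.37 for 1453238_s_at, 0.36 ± 0.24 for 1427932_s_at and 0.58 ± 0.48 for 1435137_s_at (log2, SE). The limma adjusted p-values were 0.932, 0.857, 0.822 and 0.858. Over all probe sets this contrast called 50 of 13576 (0.368%), and 465 (3.43%) with the replicate block, under which the 4 adjusted p-values were 0.547, 0.314, 0.382 and 0.221. The SEs under the block were 0.26, 0.233, 0.21 and 0.24, in the same order. All 4 estimates were above 0, but none passed in either fit. Those of 1452418_at and 1453238_s_at reached −0.13 and −0.01 when 1 array was left out.

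The ratio between the duplications was numerically larger in cerebellum, but how much so depended on single arrays. When 1 array was left out, the direction held for 1452418_at and 1427932_s_at but not always for 1453238_s_at and 1435137_s_at. For 1452418_at the ratio of mean intensities, MatDp7 over PatDp7, was 3.72 in cortex and 14.2 in cerebellum. For 1453238_s_at it was 5.6 and 14.2, for 1427932_s_at 2.94 and 7.52, and for 1435137_s_at 8.71 and 12.9. The test of the difference between regions passed for none of the 4. The interaction was 1.62 ± 0.717 for 1452418_at (unadjusted p = 0.0497 from limma) and 1.17 ± 0.479 for 1427932_s_at (unadjusted p = 0.0364 from limma). It was 0.92 ± 0.74 for 1453238_s_at and 0.28 ± 0.959 for 1435137_s_at, and each of the 4 adjusted p-values from limma was 1. With the replicate block the SEs were 0.519 for 1452418_at, 0.42 for 1427932_s_at, 0.465 for 1453238_s_at and 0.48 for 1435137_s_at. Without PatDp7 cortex replicate 1 the interaction was 0.75 for 1452418_at, 0.70 for 1427932_s_at, −0.02 for 1453238_s_at and 0.48 for 1435137_s_at. For 1435137_s_at it ran from −0.73 without MatDp7 cerebellum replicate 2 to 1.30 without MatDp7 cerebellum replicate 1, so its direction was not settled. Across the array limma called 0 of 13576 probe sets (0%) for this interaction, and 102 had an unadjusted p under 0.05 (479 with the replicate block). Under the replicate block 1 passed (0.00737%), a set for Elp2, which encodes a subunit of the Elongator complex, and none of the 4 transcripts.

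The 4 transcripts differed in how they moved between the replicate numbers. Over the 4 neonatal groups 1435137_s_at was 1.22 ± 0.24 (log2) higher under replicate number 2 than under number 1 (limma adjusted p = 0.00181), and the same order held in all 6 replicated groups, the embryonic ones included. For 1453238_s_at the difference was −0.81 ± 0.233 (limma adjusted p = 0.0152), lower under number 2 in all 6. The latter call was lost without PatDp7 cortex replicate 1 (limma adjusted p = 0.0737) or replicate 2 (limma adjusted p = 0.0723), which leaves a difference of −0.45. For 1452418_at the difference was −0.62 ± 0.26 (limma adjusted p = 0.074), lower in 5 of 6 groups. It passed with the added constant made 4 times larger (limma adjusted p = 0.0497), without either PatDp7 cerebellum array (−0.84, limma adjusted p = 0.0433) and without either 15.5 dpc MatDp7 array (limma adjusted p = 0.0497). It was −0.25 without either PatDp7 cortex array (limma adjusted p = 0.412). For 1427932_s_at the difference was −0.08 ± 0.21 (limma adjusted p = 0.796). The replicate number passed for 5718 of 13576 probe sets (42.1%), so a share of 2 of 4 transcripts stands near that background. The direct test of 1 transcript against another was not made. The part of sex-linked signal and of array range in these values was not tested.

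**Figure D2:**
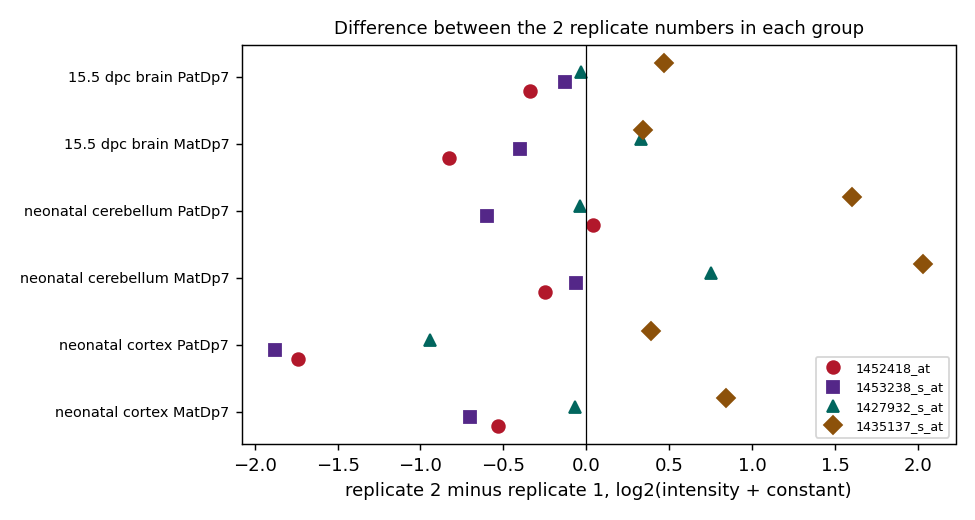
Replicate 2 minus replicate 1, in log2(intensity + 52.03), for the 4 transcripts in the 6 groups with 2 arrays. The brown diamonds of 1435137_s_at lie above 0 in all 6 groups and the purple squares of 1453238_s_at lie below 0 in all 6.

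The 3 glucocorticoid-induced genes named with the transcripts were chosen with earlier results of these arrays known, so their levels too are a description. Klf15 was at 300 and 400 in MatDp7 cortex and 424 and 371 in MatDp7 cerebellum, against 112 and 175 in PatDp7 cortex and 245 and 218 in PatDp7 cerebellum. The neonatal groups did not overlap, and the ratio of means was 1.99. In embryos Klf15 was at 200 and 138 (MatDp7) and 170 and 140 (PatDp7) at 15.5 dpc, and at 18.7 and 14.5 at 13.5 dpc. The 15.5 dpc level therefore lay within the neonatal PatDp7 range.

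Cebpd was among the dimmest 40% of probe sets, and its difference comes from a fit without that filter. Its MatDp7 intensities were 235 and 295 in cortex and 272 and 256 in cerebellum, and its PatDp7 intensities were 88 and 120 in cortex and 41.1 and 130 in cerebellum. The groups did not overlap and the ratio of means was 2.79. At 15.5 dpc it was at 131 and 96.5 (MatDp7) and 109 and 105 (PatDp7), and at 13.5 dpc at 159 and 209. A further probe set for Cebpd did not follow this pattern and correlated with the 4 transcripts at −0.47 to −0.24 over the newborn arrays.

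Tsc22d3 overlapped between the duplications. It was at 412 and 1105 in MatDp7 cortex, 1037 and 1495 in MatDp7 cerebellum, 235 and 900 in PatDp7 cortex and 414 and 1009 in PatDp7 cerebellum. Within each replicate number and region MatDp7 was the higher, yet replicate 2 exceeded replicate 1 in every neonatal group. The neonatal difference was −0.69 ± 0.439 on the log2 scale, beside −0.86 ± 0.18 for Klf15 and −1.15 ± 0.227 for Cebpd. The other 2 probe sets for Tsc22d3 gave −0.68 and 0.32, so the sets did not share a direction. The embryonic mean of 921 ± 118 (SD, n = 6) lay between the neonatal means of 1012 ± 448 and 640 ± 374 (SD, n = 4), unlike the low embryonic values of the 4 transcripts.

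Correlations were taken on the log2 scale over the 8 neonatal arrays. These arrays formed separate sets of 4 for each of the 4 transcripts, so a relation cannot be tested and Pearson's r mostly reflects the gap between the duplications. With Klf15 the 4 transcripts had r of 0.62 to 0.68, with Cebpd 0.78 to 0.93 and with Tsc22d3 0.13 to 0.55. The median over the 12 pairs was 0.63 (Spearman 0.65), and it was 0.68 after the mean of each replicate number was removed. Once the mean of each duplication was removed instead, the median was −0.34, with only 3 of 12 pairs above 0 and values of −0.83 to −0.33 for Klf15.

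A single array weighed on this. PatDp7 cortex replicate 1 was the highest PatDp7 array for 1452418_at (2203), 1453238_s_at (795) and 1427932_s_at (1916) but the lowest for Klf15 (112) and Tsc22d3 (235). Without it the median r was 0.83. On the same array Ndn was at 9067, in the PatDp7 range. Without the 2 arrays farthest from each transcript's median, the median r over the 12 pairs was 0.66.

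**Figure D3:**
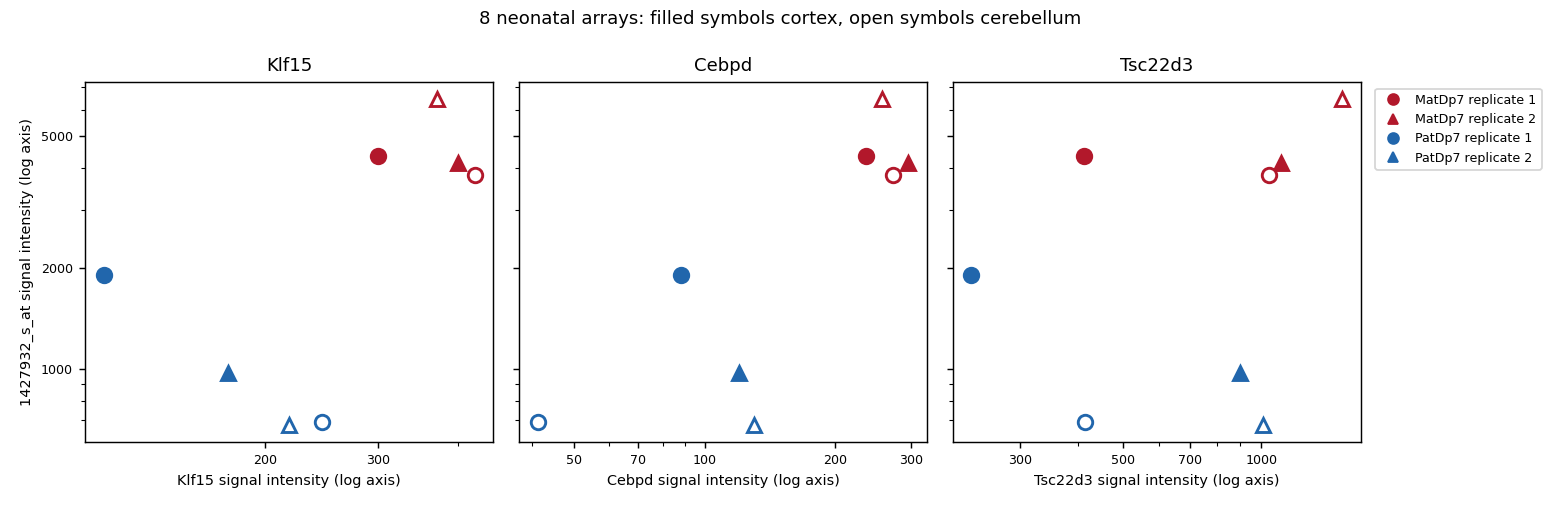
Intensity of 1427932_s_at against Klf15, Cebpd and Tsc22d3 (log axes) on the 8 neonatal arrays, with MatDp7 in red, PatDp7 in blue, filled symbols for cortex and open symbols for cerebellum, circles for replicate 1 and triangles for replicate 2. The sets of 4 separate on both axes for Klf15 and Cebpd and on the vertical axis only for Tsc22d3, and the filled blue circle (1916) is high for the transcript and low for Klf15 (112).

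Over all 14 arrays the median r of the 12 pairs was 0.59. By gene it was 0.56 to 0.61 for Klf15, 0.68 to 0.81 for Cebpd and −0.11 to 0.29 for Tsc22d3. In the 6 embryonic arrays alone the 12 values ran from −0.93 to 0.90 with a median of −0.27. The transcripts tracked each other more closely, with r of 0.80 to 0.99 (median 0.93) over the newborn arrays. Within the duplications these 6 pairs had a median r of 0.59, the lowest being −0.15 for 1453238_s_at with 1435137_s_at and the highest 0.91 for 1452418_at with 1453238_s_at. The points of each correlation share arrays, replicate numbers and scaling.

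The mean of the standardised values of the 4 transcripts was set against the other 13572 tested probe sets, to see where the 3 genes stand. Over the newborn arrays Klf15 had r = 0.67 and rank 236, Tsc22d3 r = 0.30 and rank 2187, and Cebpd r = 0.88, which would be rank 18. Over all 14 arrays the ranks were 192 for Klf15, 6528 for Tsc22d3 and 21 for Cebpd. Of the 3 genes, Cebpd thus stood nearest the top of the order of 13572, Klf15 came next, and Tsc22d3 lay far below both.

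The named genes most alike over the newborn arrays were led by C230091D08Rik, whose 2 probe sets had r of 0.98 and 0.95. Then came a set for Uri1 (0.95), which encodes a prefoldin-like chaperone component, and sets for Tcim (0.94), Pop4 (0.93), a subunit of RNase P, and the splicing factor Sf3a3 (0.93). The maternally expressed ubiquitin ligase Ube3a (0.92), the reductase Akr1e1 (0.91), the replication helicase subunit Mcm4 (0.90) and the collagen Col5a2 (0.90) completed the 10. None of these genes is on the list of glucocorticoid-induced genes. Other probe sets were far less alike for Uri1 (0.01 and −0.09), Mcm4 (0.11) and Col5a2 (0.47). Another set for Sf3a3 had 0.59, and further sets for Ube3a had 0.74 to 0.95, the brightest having 0.74.

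C230091D08Rik parted from the 4 transcripts before birth. In 15.5 dpc brain its first-ranked set was at 1125 and 1326 with MatDp7 and at 386 and 554 with PatDp7. Uri1 was likewise at 663 and 537 against 227 and 231. For none of the 4 transcripts, which were chosen as not high in embryos, did both MatDp7 embryos of that age exceed both PatDp7 embryos.

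Over all 14 arrays, where the step from embryo to newborn enters as well, the most similar named gene was Tfrc, the transferrin receptor (0.90; other sets 0.79 and 0.26). It was followed by Rbbp6 (0.83), the metallothionein Mt2 (0.81), the transcription factor Klf9 (0.81), the nuclear import factor Kpna6 (0.81) and the immediate early gene Fos (0.81). Dusp1, a phosphatase of MAP kinases (0.80), Cables1 (0.79), Tbc1d8 (0.79) and the sulfotransferase Sult1a1 (0.78) completed the 10. Mt2, Klf9, Dusp1 and Sult1a1, 4 of the 10, are on the glucocorticoid list, which covers 30 of the 13576 tested probe sets. That list was drawn up with earlier results of these arrays known, so the overlap is a description without a test. The Klf9 set counted here is not the one used for Klf9 in the list results, which had r = 0.71 and rank 36. Other sets for Rbbp6 had −0.09 and 0.28, and another for Kpna6 had 0.20. Those for Klf9 had 0.46 to 0.76, and another for Tbc1d8 had 0.52.

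The list of glucocorticoid-induced genes, drawn up with earlier results of these arrays known, held 25 genes, of which 24 were on the array and 19 were tested. None passed the neonatal parental test in limma, with or without the replicate block, a test that called 17 of 13576 probe sets (0.125%) in either direction, and 27 (0.199%) with the block. An unadjusted limma p under 0.05 was found for 4 of the 19, against 261 of 13576 (1.92%). With the replicate block 973 of 13576 had such a p, and the list was not counted there. Among markers of meninges, in the fit without the block, it was found for 3 of 6. The median difference of the 19 was −0.44 on the log2 scale, against 0.00 over all tested probe sets, and 17 of 19 were lower in PatDp7. These 19 include Klf15 and Tsc22d3. In 5 of the 19, Klf15 among them, all MatDp7 arrays exceeded all PatDp7 arrays, against 0.928% of all tested probe sets.

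Dusp1 had a difference of −0.66 ± 0.175 (limma adjusted p = 1), with 831 to 1175 on the MatDp7 arrays and 518 to 743 on the PatDp7 arrays. Mt2, which binds zinc and copper, was at 1607 to 3469 and 1278 to 1435 (−0.77 ± 0.256). Sult1a1 was at 400 to 691 and 204 to 362 (−0.60 ± 0.196). The standard hormone targets Fkbp5, a co-chaperone of the receptor, and Per1, a clock gene, had small differences of −0.16 ± 0.142 and −0.16 ± 0.184. For the kinase gene Sgk1 it was −0.44 ± 0.267. All lay well short of the 4 transcripts, whose smallest difference was −2.18.

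**Figure D4:**
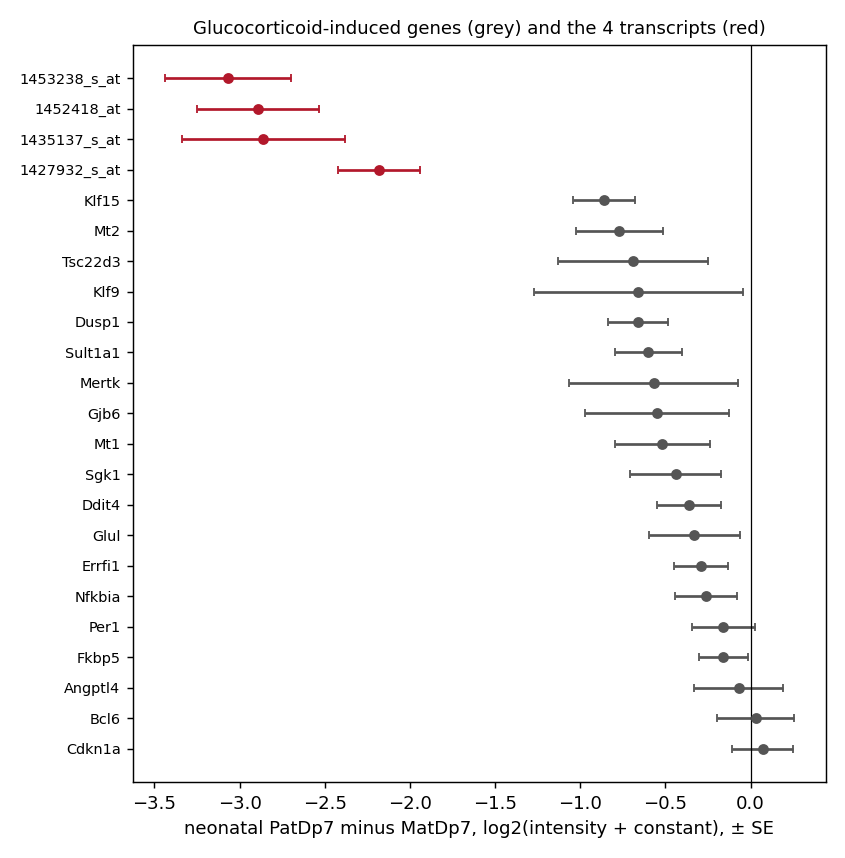
Neonatal PatDp7 minus MatDp7 difference in log2(intensity + 52.03), with SE, for the 4 transcripts (red) and the 19 tested glucocorticoid-induced genes (grey). The 4 transcripts lie between −3.07 and −2.18 and Klf15, the lowest grey point, lies at −0.86.

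The summed intensity of the list was 20220 to 24420 on the 4 neonatal MatDp7 arrays, 15760 to 17630 on the 4 PatDp7 arrays and 12520 to 15910 on the 6 embryonic arrays. As for each of the 4 transcripts, the MatDp7 newborns lay above both other ranges, which overlapped. The list includes Klf15, Cebpd and Tsc22d3 and was drawn up with earlier results of these arrays known. The sum and the r values are therefore descriptions. Per gene, the median r with the mean of the transcripts was 0.46 over the newborn arrays (17 of 19 above 0) and 0.60 over all 14 (16 of 19 above 0), against 0.02 and 0.01 over all tested probe sets. The newborn values were not particular to this list. For markers of meninges r was 0.18 (Igf2) to 0.81 (Col1a2) over the newborn arrays, and −0.46 (Lum) to 0.02 (Col1a1) over all 14.

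The receptor and steroid enzyme genes did not pass the parental test. Nr3c1, the receptor, had a difference of 0.22 ± 0.566, Hsd11b1, which regenerates active hormone, 0.11 ± 0.18, and Hsd11b2, which inactivates it, 0.40 ± 0.313. On the other response lists no gene passed at its representative probe set, with or without the block. A further set for Slc2a1, the glucose transporter on the hypoxia list, passed with the block only (−0.92, limma adjusted p = 0.014), while the other 2 sets, at −0.56 and −0.72, did not. The median was −0.24 for 7 tested immediate early genes, where Fos had −0.79 ± 0.315, −0.11 for 8 hypoxia genes and −0.14 for 2 interferon-induced genes.

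Of 56 tested markers on 10 cell type lists, limma called none between the duplications, with or without the replicate block. With 0.125% and 0.199% of all probe sets called, a count of 0 is near that background. No list's summed signal separated the neonatal MatDp7 from the PatDp7 arrays. Markers of meninges were lower with PatDp7 in 6 of 6 genes, with a median of −0.67. Their summed signal was 8985 to 13090 with MatDp7, 4374 to 10340 with PatDp7 and 14070 to 46330 in embryos, where the 4 transcripts were low. The collagen gene Col1a1 had −1.14 ± 0.483. Summed signals were 2306 to 3826 and 2642 to 4505 for endothelium, 2559 to 3177 and 2915 to 3775 for microglia, and 333 to 927 and 489 to 1199 for blood (MatDp7 and PatDp7). The part of cell composition in the signal of the 4 transcripts was not tested.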

How the data were processed

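The deposited values are linear signal intensities of 14 Affymetrix 430A arrays, which the authors computed with MAS5 (version not given) per the submitters' processing notes. The 2% trimmed mean of each array was 500.13 to 500.15, so no further scaling was done. The labels call the replicates biological but name no animals or pools, so p-values measure only the spread between these samples.

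Of 22690 probe sets, 64 controls were left out. Of the remaining 22626 the annotation gives 20380 with 1 gene, 691 with several and 1555 with none. A constant of 52.03, the 20th percentile of the deposited intensities, was added before taking log2. Probe sets with a mean log2 value in the lowest 40% were not tested, leaving 13576. Group means for the 8 groups were fitted by limma 3.58.1 (R 4.3.3) with an intensity trend (6 residual and 3.15 prior degrees of freedom). P-values were Benjamini-Hochberg adjusted over all tested probe sets and called under 0.05. The code was tested on simulated data. Plots used matplotlib 3.10.9.

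Same-numbered neonatal arrays deviated together from their group means (correlation 0.71 to 0.816 in 6 pairs of groups, against −0.0922 to 0.264 in the 9 pairs that include an embryonic group). They were therefore taken as paired, and values with a replicate block are given where it changes a call or count.

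The 4 transcripts, the 3 genes and all lists were chosen with earlier results of these data known. Beyond these, the named genes are the 10 probe sets with 1 gene most correlated with the mean of the 4 transcripts (Pearson, over 8 and over 14 arrays), up to 4 members of each list with the smallest p, and checks on Ndn, Peg3, Xist and Uty. Fkbp5, Per1, Sgk1 and Elp2 were named after their values were seen. Of several probe sets for a gene, the one with the highest mean log2 value was used. Alternatives were other constants, filters and scalings, leaving out each array, and the replicate block.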

Additional observations from a re-analysis of the deposited data

Results flagged for a closer look

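For 1453238_s_at the PatDp7 minus MatDp7 difference in 15.5 dpc brain was 0.42 on the log2 scale, while every neonatal PatDp7 array lay below every MatDp7 array. It was flagged because both PatDp7 embryos exceeded both MatDp7 embryos, opposite to the newborns, though its SE from limma (0.523) was larger than the difference. For 1427932_s_at the 15.5 dpc difference was 0.76 ± 0.339 (SE), with the same opposite order on every array. Each order rests on 2 arrays against 2, and its share over all probe sets was not counted. Neither difference between ages was tested, since the newborn and embryonic values served to choose the transcripts.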

How the results depend on the processing

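Of 414 values recomputed under other settings, 387 were counted as kept. These stayed on their side of the threshold, within the spread between arrays or within 1.5 times the count. A tested difference called under neither setting was counted so even where its sign changed. The 1435137_s_at interaction, at −0.73 to 1.3 when 1 array was left out, is such a case. Another 19 moved, 2 weakened, 5 became stronger and 1 reversed. With the replicate block the parental test called 27 probe sets, cortex against cerebellum 465 and the interaction 1. Cortex against cerebellum called 33 under the stricter filter. Leaving out 1 array gave 15 to 17 calls for the parental test, 29 to 43 for cortex against cerebellum and 0 to 1 for the interaction. The median correlation of the 4 transcripts with the 3 glucocorticoid-induced genes was 0.54 after quantile scaling, 0.68 with the replicate block, 0.58 to 0.83 when 1 array was left out, and reversed to −0.34 with the duplication means removed. The last setting takes away the gap between the duplications by its construction. For the other changes the cause was not tested.

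The neonatal differences of the transcripts kept their sign under every setting run, from −3.32 to −2.45 for 1452418_at, −3.54 to −2.6 for 1453238_s_at, −2.42 to −1.95 for 1427932_s_at and −3.37 to −2.36 for 1435137_s_at when 1 array was left out. Under the stricter filter 1435137_s_at is not tested and has no value. The number of arrays, 2 a group and 1 at 13.5 dpc, limits the precision, and dim values near 52.03 are the least certain.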

Other observations

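Among probe sets without a gene in the annotation, 1448319_at and 1424141_at were most like the mean of the 4 transcripts over the newborn arrays, each with r = 0.79. Over all 14 arrays 1424141_at came first, with r = 0.80. Its intensity was 2060 to 2467 on the neonatal MatDp7 arrays, 1670 to 2010 on the neonatal PatDp7 arrays and 1169 to 1680 in embryos. The neonatal difference of −0.30 ± 0.162 on the log2 scale was far smaller in size than that of any of the 4 transcripts. These probe sets were chosen for this likeness, and the values are a description.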
